A study of Mus musculus with 16 samples.

Results

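MicroRNA (miRNA) levels in wild-type mouse embryonic stem cells were compared between 48 h and 24 h of differentiation, the last interval of a 4-point course. Each measured item is 1 arm (5p or 3p) of 1 miRNA hairpin, and the arms described are those above 0 in at least 2 of the 4 libraries of these times, which were 1294 of the 1696 arms in the table. Of these, 1056 were above 0 in all 4 libraries. The cells were the wild-type line written V65, strain 129/C57BL/6, at passages 9-11. They were taken from 2iL, a medium with inhibitors of MEK and GSK3 plus LIF that holds the cells in the naive state, into N2B27 with bFGF and KSR, and both groups compared here had been in that medium, for 24 h and for 48 h. Each time had 2 libraries, which the design calls biological replicates of 1 cell line; whether they were separate cultures was not stated, so p-values measure the spread between these libraries. Small RNA was also sequenced at 0 h and 12 h, and those 4 libraries were used to estimate the spread and for 1 comparison of intervals. Cells without Dgcr8 were profiled in the series for total RNA only, and all its small RNA libraries are of wild-type cells.

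A miRNA is cut from a hairpin in its primary transcript by Drosha with DGCR8 and then by Dicer, and 1 of the 2 arms is usually kept in an Argonaute protein. Bases 2 to 8 of the mature miRNA, the seed, pair with target mRNAs, so miRNAs with the same seed share many targets. Mouse embryonic stem cells are known for the miR-290 cluster, which dominates naive cells, and the miR-302 cluster, which comes up as cells move towards the primed state; several members of both share a seed and repress inhibitors of the cell cycle. The let-7 family, whose maturation LIN28 blocks in stem cells, is known for acting in the opposite direction.

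The mature sequences of the miRNAs on which the results turn are printed 5′ to 3′, with the seed in capitals. They are RefSeq's, on build GRCm38.p6, which had a sequence for 856 of the 1294 arms. The first set shares the seed AAGUGCU across the miR-302 cluster on chromosome 3 and the miR-290 cluster on chromosome 7, and its members moved differently.
miR-302b-3p: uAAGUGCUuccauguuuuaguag
miR-302d-3p: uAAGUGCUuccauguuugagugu
miR-291a-3p: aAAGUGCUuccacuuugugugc
miR-294-3p: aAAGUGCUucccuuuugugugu
miR-295-3p: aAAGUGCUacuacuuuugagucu
The second set pairs members of the miR-17-92 cluster on chromosome 14 with their paralogs of the miR-106a-363 cluster on chromosome X, to show how close in sequence they are.
miR-17-5p: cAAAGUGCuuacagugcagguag
miR-106a-5p: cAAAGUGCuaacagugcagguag
miR-20a-5p: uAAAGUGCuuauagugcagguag
miR-20b-5p: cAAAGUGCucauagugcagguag
miR-18a-5p: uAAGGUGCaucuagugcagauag
miR-18b-5p: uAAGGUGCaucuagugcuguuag
The third set holds the most abundant 5p arm of the miR-290 cluster beside a neighbour with the same seed.
miR-292-5p: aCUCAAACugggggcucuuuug
miR-293-5p: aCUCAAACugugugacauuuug
The last set holds miRNAs with the largest rises or falls, or that lead a family described further on.
miR-34b-5p: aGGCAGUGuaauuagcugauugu
miR-203-3p: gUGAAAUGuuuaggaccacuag
miR-344-1-3p: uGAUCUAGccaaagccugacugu
miR-29a-3p: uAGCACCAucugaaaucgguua
miR-374b-5p: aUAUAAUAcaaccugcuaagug
miR-3473e-5p: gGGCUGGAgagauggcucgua
miR-3473b-3p: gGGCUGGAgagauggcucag
let-7g-5p: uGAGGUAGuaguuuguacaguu
let-7c-1-5p: uGAGGUAGuagguuguaugguu
miR-499-5p: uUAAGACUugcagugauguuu
miR-7a-1-5p: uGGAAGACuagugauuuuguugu

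The deposited value is a relative signal that sums to 110000 in every library, so each arm is measured as a part of the whole. Whole reads were recovered from the steps between low values: 8393703 and 7179271 reads at 24 h, and 7992979 and 9131989 at 48 h. These are assignments to hairpins rather than molecules, since rows of some copies hold the same reads. Replicates were correlated on the log2 scale at 0.9956 at 24 h and 0.9980 at 48 h. The 685 arms with a signal of at least 1 in at least 2 of the 8 libraries were tested with limma on log2(signal + 0.5), and a change was called at a Benjamini-Hochberg adjusted p under 0.05 over those arms. The other 609 of the 1294 arms (47.1%) were not tested; their signal in these 4 libraries was at most 1.5, with a median of 0.043. Arms just inside the limit, above 0 in exactly 2 of the 4 libraries, numbered 129 and reached at most 0.11, which was 8 reads; the 184 just outside it, above 0 in 1 library, reached at most 0.0615, which was 4 reads. Fold changes are on the log2(signal + 0.5) scale and understate the change of arms near or under that pseudocount.

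The miRNA profile changed widely between 24 h and 48 h, with the miR-302 cluster, the X-linked miR-106a-363 cluster, the repeated miRNAs of the Sfmbt2 cluster and miR-34b and miR-34c higher at 48 h, and let-7, miR-7a, the miR-183 cluster and 5p arms of the miR-290 cluster lower. By limma with Benjamini-Hochberg adjustment, 456 of 685 arms were called (66.6%), 236 as rises (34.5%) and 220 as falls (32.1%). Most changes were small: 42 arms rose by at least 2-fold (6.13%) and 35 fell by at least 2-fold (5.11%), and the median log2 change of all tested arms was −0.04. The 24 h and 48 h values did not overlap for 557 arms (81.3%). In the lists below, counts are read against these shares, and in these bulk samples fewer cells of a type and less RNA per cell cannot be told apart.

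**Figure D1:**
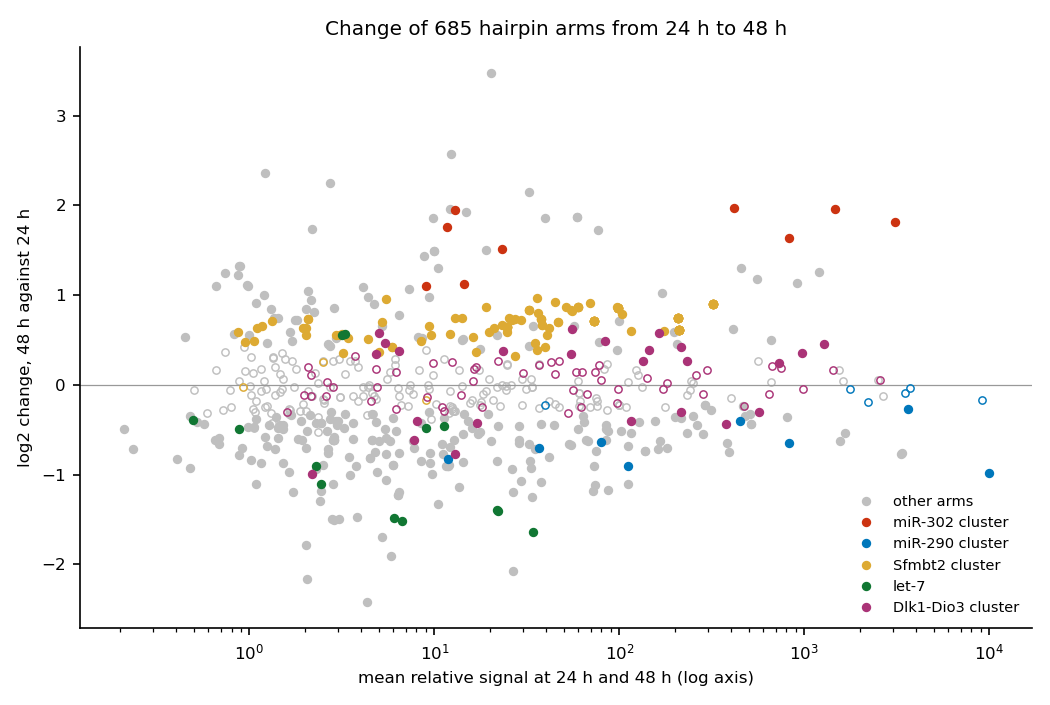
Each point is 1 of 685 tested arms, by its mean relative signal at 24 h and 48 h (log axis) and its log2 change from 24 h to 48 h; filled points were called by limma and open points were not. The miR-302 arms lie between 1.10 and 1.97, while the most abundant miR-290 arms lie between −0.98 and −0.04.

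The miR-302 cluster, on chromosome 3 within the RefSeq span of Larp7, rose as a whole. All 9 of its arms that were tested were called as rises, with log2 changes from 1.10 to 1.97 and a median of 1.76, against 34.5% of all tested arms. Its summed signal was 2472 and 2706 at 24 h and 9706 and 8710 at 48 h, which is 2.25% and 2.46% of the library at 24 h and 8.82% and 7.92% at 48 h, a ratio of the mean sums of 3.56. The leading member was miR-302b-3p, at 1253 and 1507 at 24 h and 5141 and 4541 at 48 h. Both 48 h libraries lay far above both 24 h libraries (log2 change 1.81, SE 0.11, limma adjusted p = 1.6e-07). With the same seed, miR-302d-3p went from 602 and 603 to 2504 and 2184 (log2 1.96, SE 0.10, limma adjusted p = 4.6e-08). For miR-302a-3p the values were 178 and 163 at 24 h and 676 and 658 at 48 h, a log2 change of 1.97 and no overlap between the times.

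The other arms of the miR-302 cluster rose too. The 5p arm miR-302a-5p, the main product of its hairpin and more abundant than its 3p arm, rose from 405 and 395 to 1275 and 1224 (log2 1.64). At a lower level, miR-302c-5p went from 5.15 and 4.93 to 21.5 and 20.3 (log2 1.95). The signal of miR-367-3p went from 4.57 and 5.61 to 17.8 and 18.9 (log2 1.76). The smallest rises of the cluster were those of the minor 5p arms miR-302b-5p (log2 1.10) and miR-302d-5p (log2 1.12), each below the rise of the 3p arm of the same hairpin. The difference between the arms was called for both hairpins: the 5p share of miR-302d fell from 1.44% and 1.49% to 0.831% and 0.874% (log2 change of the 5p to 3p ratio −0.83, limma adjusted p = 0.00028), and that of miR-302b from 0.338% and 0.463% to 0.252% and 0.257% (−0.71, adjusted p = 0.0016; 0.059 without 24 h replicate 2).

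The miR-290 cluster, on chromosome 7, is the stem cell cluster that held the largest part of every library here, and its part became smaller. Its summed signal was 38822 and 41697 at 24 h and 31301 and 30116 at 48 h, or 35.3% and 37.9% of the library against 28.5% and 27.4%, with no overlap. Of its 14 arms, 8 were called as falls and none as a rise, with a median log2 change of −0.33. Most of the fall in signal was in 5p arms. The arm with the highest mean signal over the 4 libraries, miR-292-5p, went from 12647 and 13738 to 6418 and 6962 (log2 −0.98, SE 0.09, limma adjusted p = 2.1e-06). Each 48 h library thus lay well under each 24 h library. At 48 h the arm also stood under miR-293-3p, which was at 8653 and 8542. Quantile normalization, which gives arms of the same rank the same value in every library, left −0.33 for miR-292-5p (limma adjusted p = 0.068).

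Other 5p arms of the cluster fell by similar or smaller amounts. For miR-291a-5p the signal was 952 and 1070 at 24 h and 670 and 616 at 48 h (log2 −0.65), and for miR-291b-5p it was 142 and 151 against 79.7 and 76.9 (log2 −0.90). The minor 5p arms of miR-294 (log2 −0.64) and miR-295 (log2 −0.70) also fell. The exception was miR-293-5p, at 3619 and 3961 at 24 h and 3643 and 3738 at 48 h, where the times overlapped (log2 −0.04, limma adjusted p = 0.76).

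The 3p arms with the seed AAGUGCU stayed near their 24 h level. The signal of miR-295-3p was 3432 and 3743 at 24 h and 3711 and 3073 at 48 h (log2 −0.09, SE 0.10, limma adjusted p = 0.47), and miR-291a-3p stood at 1886 and 1696 against 1755 and 1692 (log2 −0.05, adjusted p = 0.69). The values of miR-294-3p were 2279 and 2441 at 24 h and 2254 and 1904 at 48 h (log2 −0.19, limma adjusted p = 0.12). None of these was called, and their standard errors of 0.10 to 0.11 leave room for small changes. The arm with the second highest mean signal, miR-293-3p, went from 9567 and 9827 to 8653 and 8542, without overlap but not past the threshold (log2 −0.17, limma adjusted p = 0.069). The call for miR-292-3p, from 3664 and 4279 to 3559 and 3029, was marginal (log2 −0.27, limma adjusted p = 0.045) and was lost with edgeR on the recovered reads (adjusted p = 0.14). At a low level, miR-290-3p went from 13.7 and 16.8 to 8.49 and 8.2 (log2 −0.83), a larger fall than that of its 5p arm (−0.40).

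The share of each hairpin's signal in its 5p arm was tested directly, as the log2 ratio of the 5p to the 3p arm, for the 236 hairpins with both arms past the filter. The ratio was called for 43 hairpins (18.2%), 21 upward and 22 downward, and the count was 19 without 48 h replicate 1 and 27 without 48 h replicate 2. In the miR-290 cluster it was called downward for 5 of 7 hairpins. The 5p share of miR-292 was 77.5% and 76.3% at 24 h and 64.3% and 69.7% at 48 h (log2 change of the ratio −0.71, SE 0.19, limma adjusted p = 0.015). In miR-291a it was 33.5% and 38.7% against 27.6% and 26.7% (−0.60, adjusted p = 0.023 by limma), and in miR-295, where the 3p arm is the main product, 1.28% and 1.24% against 0.785% and 0.855% (−0.62, adjusted p = 0.0025 by limma). The ratios of miR-291b (−0.68) and miR-294 (−0.46) were also called, while those of miR-290 (0.43, limma adjusted p = 0.087) and miR-293 (0.14, adjusted p = 0.63) were not. Of the 5 calls, that of miR-295 alone was kept when any 1 of the 4 libraries was left out. Without 48 h replicate 1, the ratios of miR-292 (−0.53, adjusted p = 0.19), miR-291a (−0.63, adjusted p = 0.12), miR-291b (−0.51, adjusted p = 0.23) and miR-294 (−0.46, adjusted p = 0.13) pointed the same way and missed the threshold by limma.

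**Figure D2:**
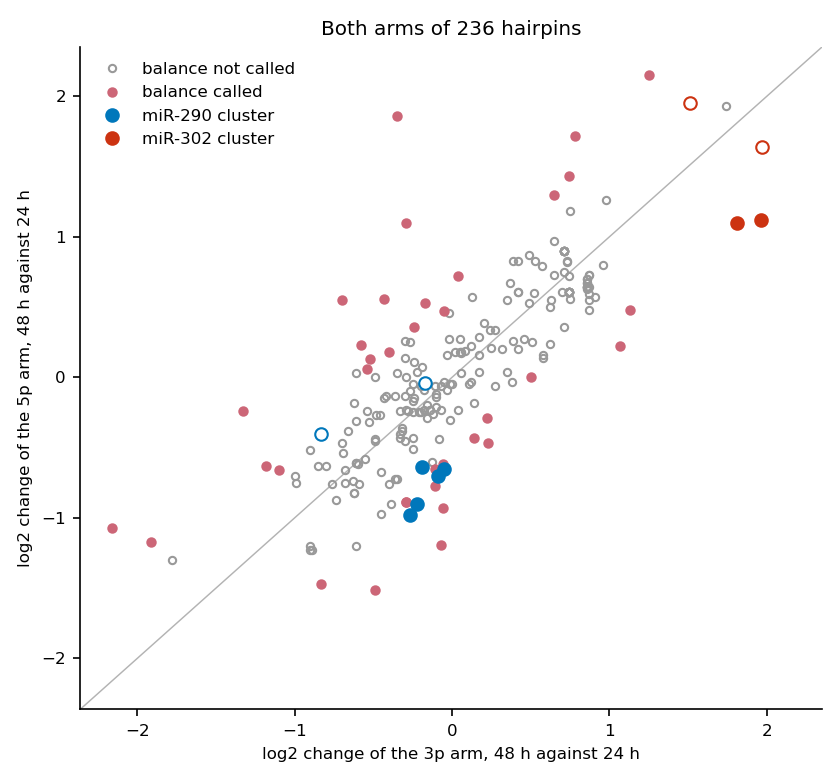
Each point is 1 of 236 hairpins, by the log2 change of its 3p arm (horizontal) and of its 5p arm (vertical) from 24 h to 48 h; on the grey line both arms change equally. Filled points had a called change of the 5p to 3p ratio, and 5 of the 7 miR-290 cluster hairpins lie under the line with called changes of −0.46 to −0.71.

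Among hairpins outside these clusters, the largest called upward shift was that of miR-760, whose 5p arm went from 4.15 and 3.68 to 13.8 and 17.5 while its 3p arm was at 0.628 and 0.553 and then 0.330 and 0.385 (log2 change of the ratio 2.21, limma adjusted p = 1.6e-07). Because the 3p arm is near the pseudocount, the size was 2.56 with a pseudocount of 0.1 and 1.71 with 2. In miR-195a, of the family of the tumour suppressors miR-15 and miR-16, the 5p share rose from 57.6% and 66.4% to 79.8% and 77.3% (1.09). The 3p arm made this difference, falling from 17.4 and 12.9 to 4.97 and 6.42, against 23.6 and 25.4 and then 19.6 and 21.8 for the 5p arm. The 5p share of miR-199b rose from 1.75% and 1.58% to 8.22% and 9.35% (1.40), with a 5p arm at 0.222 and 0.245 at 24 h, so that the size was 2.12 with a pseudocount of 0.1 and 0.72 with 2. Its 3p row held nearly the same values as those of the miR-199a copies. Upward shifts were also called for miR-1195 (1.25) and miR-150 (1.10). Downward, miR-1935 had a 5p share of 75.1% and 74.3% at 24 h and 57.2% and 57.4% at 48 h (−1.12). For miR-129-2 it was 85.7% and 81.2% against 70.7% and 74.7% (−0.85). Its 5p row held nearly the same values as that of miR-129-1, whose ratio was called upward (0.81, limma adjusted p = 0.019). The values for miR-125b-1 (−1.03) and miR-185 (−0.87) rest on 3p arms near or under the pseudocount: the raw 5p share of miR-125b-1 was 93.3% and 93.1% at 24 h and 91.9% and 94.5% at 48 h, which overlapped.

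Signal was also summed over arms with the same seed, which takes in only arms with a RefSeq sequence. Those arms held 84.1% of the signal in each 24 h library, and 78.2% and 78.9% at 48 h. Of 328 seeds, 192 were called (58.5%), 59 as rises and 133 as falls. The effect of the smaller share at 48 h on these counts was not tested. The split between rises and falls depends on the scaling. The median seed stood at −0.21 as deposited and at −0.02 after median-ratio scaling, a shift of 0.19 that gave 99 rises and 87 falls. The seed AAGUGCU rose from 9452 and 9990 to 15365 and 13394 (log2 0.56, SE 0.09, limma adjusted p = 2.3e-05; 0.77 after that scaling), which is 8.59% and 9.08% of the library at 24 h and 14% and 12.2% at 48 h. The arms behind it came to nearly equal parts: miR-302b-3p and miR-302d-3p gave 19.6% and 21.1% of its signal at 24 h and 49.8% and 50.2% at 48 h, the rest being miR-290 cluster arms. The sum leaves out miR-302a-3p, for which the sequence table had no entry.

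In the same sums, the seed CUCAAAC of miR-292-5p, miR-293-5p and miR-290-5p fell from 16715 and 18273 to 10474 and 11059 (log2 −0.70, limma adjusted p = 1.2e-06), so that it no longer exceeded AAGUGCU. The seed AUCAAAG of miR-291a-5p and miR-291b-5p fell as well (log2 −0.68). The miR-17 and miR-20 seed AAAGUGC rose from 3567 and 3774 to 4829 and 5684 (log2 0.51, limma adjusted p = 0.00029), and AAGGUGC of miR-18a and miR-18b from 359 and 414 to 777 and 784 (log2 1.02). The seed AUUGCAC of miR-92a, miR-363 and miR-25 was at 4266 and 4840 at 24 h and 5013 and 5202 at 48 h, and was not called as deposited (log2 0.17, limma adjusted p = 0.094) but was called after median-ratio scaling (0.37, adjusted p = 0.0027).

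The miR-17-92 cluster, which promotes proliferation, has paralogous clusters on chromosome X (miR-106a-363) and chromosome 5 (miR-106b-25), and the 3 did not move together. Taken as 1 list, 10 of their 27 tested arms rose and 5 fell, with a median log2 change of 0.06. The division by chromosome was made after the values were seen and is a description. On chromosome X, 10 of 12 arms rose and none fell (median log2 change 0.74), and the summed signal went from 2633 and 2940 to 5291 and 5806. On chromosome 14, none of 9 arms rose and 1 fell (median 0.03), with sums of 5109 and 5664 at 24 h and 5133 and 5565 at 48 h. On chromosome 5, within the span of Mcm7, none of 6 rose and 4 fell (median −0.35), with sums of 1218 and 1159 against 921 and 1084.

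The paralog pairs printed above show the difference arm by arm. The chromosome X member miR-20b-5p went from 653 and 757 to 1572 and 1811 (log2 1.26, SE 0.12, limma adjusted p = 5.2e-06), while miR-20a-5p was at 1404 and 1475 and then 1461 and 1796 (log2 0.17, adjusted p = 0.21). At 24 h miR-20b-5p lay well under miR-20a-5p in both libraries, and at 48 h the values of the pair were close. For miR-106a-5p the values were 333 and 347 at 24 h and 706 and 846 at 48 h (log2 1.18, limma adjusted p = 1.3e-05), against 662 and 648 and then 632 and 703 for miR-17-5p (0.03, adjusted p = 0.85). For miR-18b-5p they were 245 and 285 against 640 and 659 (log2 1.30, limma adjusted p = 9.6e-07), with miR-18a-5p at 113 and 130 and then 137 and 124 (0.11, adjusted p = 0.42). In each pair the X-linked arm was the one whose times did not overlap and that was called.

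The remaining X-linked arms were more varied. The 3p arm miR-363-3p rose from 533 and 609 to 1268 and 1223 (log2 1.13), and its 5p arm by less (0.48). The 19b and 92a hairpins have copies in both clusters: miR-92a-2-3p rose (509 and 586 to 705 and 842; log2 0.50) and miR-92a-1-3p stood at 2528 and 3017 and then 2540 and 2547 (−0.12, limma adjusted p = 0.30), while both miR-19b 3p rows held nearly the same values and were not called. How the authors divided reads common to such copies was not stated. On chromosome 5, miR-25-5p fell from 45.1 and 42.9 to 27.2 and 25.8 (log2 −0.72); the calls for miR-25-3p (−0.35) and miR-106b-3p (−0.35) were lost under median-ratio scaling.

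**Figure D3:**
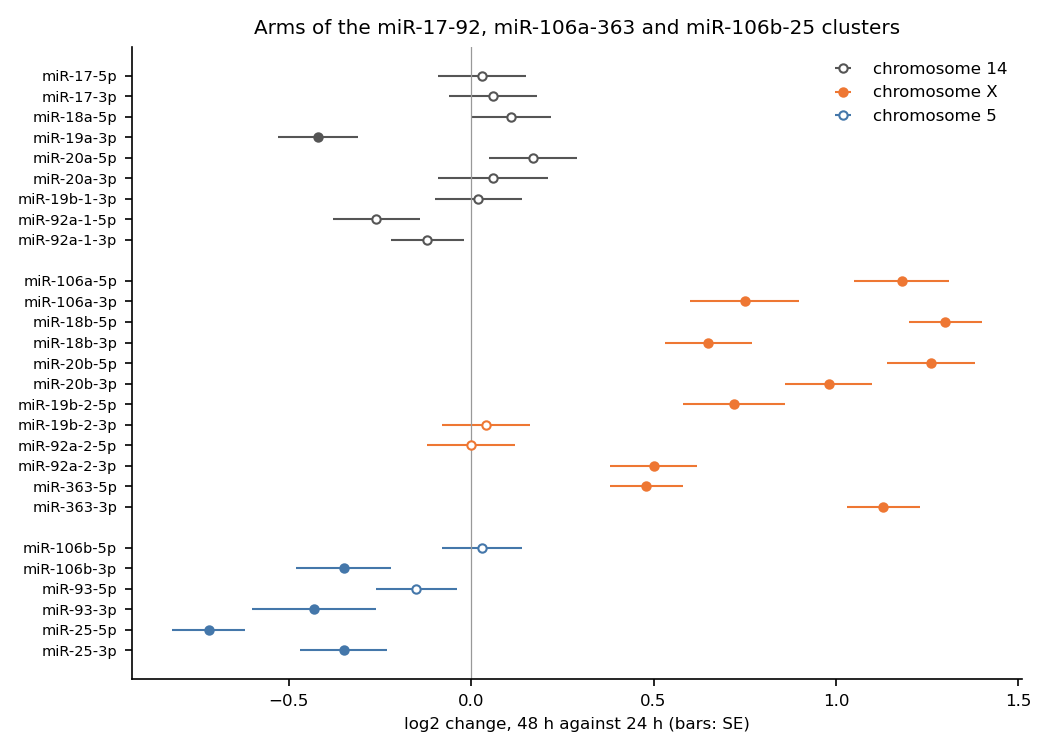
Points are the log2 changes from 24 h to 48 h of the tested arms of 3 paralogous clusters, with bars of 1 SE; filled points were called by limma. The chromosome X arms miR-106a-5p, miR-18b-5p, miR-20b-5p and miR-363-3p lie between 1.13 and 1.30, and the chromosome 14 arms between −0.42 and 0.17.

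The let-7 family fell. Its summed signal was 170 and 177 at 24 h and 76.2 and 74.3 at 48 h. Of 13 tested arms, 11 fell and 2 rose, with a median log2 change of −0.90. With copies counted once, 9 of 10 fell and 1 rose, with a median of −0.68. The leading member let-7g-5p, within the span of Wdr82, went from 54.7 and 49.8 to 16.0 and 16.8 (log2 −1.64, SE 0.12, limma adjusted p = 4.9e-07). Both let-7f copies fell by nearly the same amount (log2 −1.40 and −1.41), from 29.3 and 34.1 to 12.2 and 11.1 for let-7f-1-5p. The rises were the copies of let-7c, with let-7c-1-5p at 2.45 and 2.67 at 24 h and 4.01 and 4.06 at 48 h (log2 0.57, limma adjusted p = 0.0012). A smaller fall was measured for let-7i-5p, from 13.7 and 12.6 to 9.32 and 9.50 (log2 −0.46). As a sum over its seed GAGGUAG, let-7 fell by 1.27 on the log2 scale.

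Other lists of miRNAs common in differentiated tissues also held falls. All 6 tested arms of the miR-125, miR-99 and miR-100 list, clusters that lie beside let-7 genes, were called as falls (median log2 −0.79). Among them, miR-99b-5p went from 98.7 and 89.4 to 51.7 and 60.9. With copies counted once, 5 of the 6 were called as falls (median −0.63). All 9 tested arms of the miR-23, miR-27 and miR-24 clusters were called as falls on the deposited scale (median −0.74) and 7 of 9 under median-ratio scaling, quantile normalization or DESeq2, where miR-27b-3p was among the calls lost (adjusted p = 0.078 by limma under median-ratio scaling). Among them, miR-24-2-3p went from 160 and 183 to 100 and 104. In the miR-181 family 3 of 7 fell and none rose (median −0.24), a share not far from the 32.1% of all arms; the largest fall was that of miR-181d-5p from 101 and 98.4 to 44.1 and 43.5 (log2 −1.18). The only tested arm of the miR-204 and miR-211 list, miR-211-5p, which lies in the melanocyte channel gene Trpm1, went from 6.78 and 8.41 to 0.963 and 1.04 (−2.42).

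Among abundant miRNAs, miR-7a-1-5p, whose hairpin lies in Hnrnpk, fell from 4319 and 4185 to 2526 and 2484 (log2 −0.76, SE 0.10, limma adjusted p = 5.2e-05). The row of the miR-7a-2 copy held nearly the same values. The miR-183 cluster, best known from sensory cells, had 5 of 6 arms called as falls (median log2 −0.59): miR-183-5p went from 1916 and 1859 to 1186 and 1246 (log2 −0.63) and miR-182-5p from 2144 and 1767 to 1192 and 1506 (−0.54). The fifth call, miR-96-5p (log2 −0.24, limma adjusted p = 0.043), was lost under median-ratio scaling. Of the 12 arms with the highest mean signal, 7 did not pass the test: miR-293-3p, miR-293-5p, miR-294-3p, miR-295-3p, miR-92a-1-3p, miR-127-3p (0.05) and miR-21a-5p (0.05), with miR-21a-5p at 2456 and 2462 and then 2448 and 2647.

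In other broadly expressed families the shares of falls lay nearer to the 32.1% of all tested arms, and the medians were smaller. Of 12 tested arms of the miR-30 family 5 fell (median −0.23), of 4 of miR-26, 2 fell (−0.36), of 11 of the miR-15 and miR-16 list 3 fell (−0.18), of 10 of the miR-322 cluster 4 fell (−0.11), and of 8 of the miR-130 and miR-301 list 4 fell (−0.26). No arm of these lists was called as a rise on the deposited scale. These counts depend on the scaling: under median-ratio scaling the miR-30 family gave 1 fall and 1 rise, and the miR-130 and miR-301 list gave no call. They also hold copies, since the 2 falls of miR-26 were miR-26a rows with the same values. With copies counted once, 1 of 3 arms of miR-26 fell, and the miR-30 family gave 3 falls and 1 rise of 10. In the miR-148 and miR-152 list 1 arm rose and 1 fell of 6, in miR-10 1 of 2 fell, and none of 3 in miR-221 and miR-222 was called (median 0.17).

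Of the rises outside clusters, that of miR-3473e-5p was the largest, from 2.92 and 2.96 at 24 h to 37.5 and 37.5 at 48 h (log2 3.47, SE 0.16, limma adjusted p = 3.9e-08). It shares its seed and most of its length with miR-3473b-3p, which rose from 17.1 and 16.3 to 62.5 and 61.8 (log2 1.86). The rise of miR-5115-5p was second in size, but its 24 h libraries differed: 6.33 and 1.38, against 19.7 and 21.9 at 48 h (log2 2.57, SE 0.44, limma adjusted p = 0.00029). Both rows of miR-344, a miRNA listed as independent of DGCR8, held the same values, 24.9 and 25.0 at 24 h and 98.9 and 86.4 at 48 h (log2 1.87). The other listed DGCR8-independent arms did not rise: 4 fell and 1 was not called, so that the list gave 2 rises and 4 falls of 7.

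The miR-34 family, induced by p53 in many cells, rose most at the locus of miR-34b and miR-34c. On chromosome 9, miR-34c-5p went from 11.7 and 11.4 to 47.9 and 58.3 (log2 2.15, SE 0.13, limma adjusted p = 1.2e-07) and miR-34b-5p from 5.64 and 6.06 to 23.9 and 23.5 (log2 1.93). With their 3p arms, 4 of 5 tested arms of the family were called as rises. The fifth, miR-34a-5p of chromosome 4, was at 33.1 and 34.8 at 24 h and 42.1 and 37.8 at 48 h, without overlap but not called (log2 0.23, limma adjusted p = 0.086). Under median-ratio and TMM scaling, with edgeR or DESeq2 on recovered reads and with copies counted once, it was called as a rise too, so that 5 of 5 arms rose.

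Other rises were those of miR-203-3p, a miRNA of skin, from 4.93 and 4.41 to 18.8 and 20.4 (log2 1.96), miR-374b-5p, in the span of Ftx on chromosome X, from 31.3 and 39.9 to 109 and 128 (1.72), and miR-29a-3p, known for repressing collagens and DNA methyltransferases, from 8.97 and 10.5 to 29.5 and 27.1 (1.50). The latter pair were named after their values were seen. The miR-200 and miR-141 list, which keeps epithelial identity by repressing ZEB factors, had 6 of 7 tested arms called as rises and none as a fall (median log2 0.62). Its leading member miR-200a-3p rose from 349 and 304 to 530 and 474 (log2 0.62) and miR-200c-3p from 70.9 and 81.3 to 125 and 124 (log2 0.71).

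**Figure D4:**
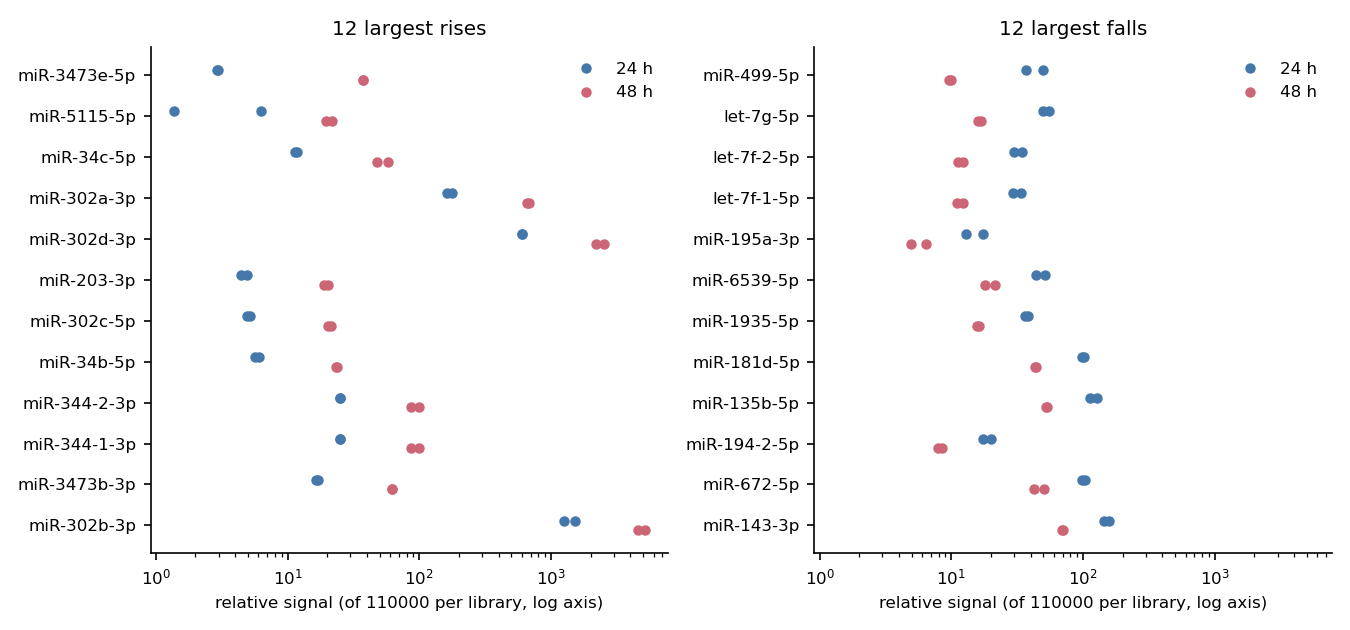
The 24 rows are the arms with the 12 largest called rises and the 12 largest called falls among arms with a mean signal of at least 10 and no overlap between the times; each point is 1 library (blue 24 h, red 48 h) on a log axis of relative signal. The rises span levels from 1.38 to 5141, whereas no arm among the falls exceeds 157.

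The Sfmbt2 cluster is a rodent array of repeated hairpins in an intron of Sfmbt2. Its list, matched by miRNA name and not by position, rose nearly as a block. Its summed signal went from 9945 and 9404 to 16518 and 16162. This sum adds rows of copies with identical values each time, so its level is not the abundance of separate miRNAs. The log2 ratio of the mean sums was 0.756, and 0.787 with copies counted once. Of 138 tested arms 135 were called as rises and none as a fall (median log2 0.71), against 34.5% of all tested arms. Many of these rows are copies with identical values and are not independent: with copies counted once, 57 of 60 rose, and with quantile normalization 122 of 138 did. The copies of miR-467a-5p stood at 256 and 192 at 24 h and 373 and 461 at 48 h (log2 0.90). The largest rise was miR-669l-5p, from 24.7 and 23.6 to 49.7 and 45.9 (log2 0.97), and miR-466q-5p was among the arms not called (8.60 and 10.5 against 9.26 and 7.56).

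The Dlk1-Dio3 cluster, an imprinted array on chromosome 12 expressed from the maternal allele, was mixed. Of 79 tested arms 16 rose and 9 fell (median log2 0.11), shares of rises and falls under those of all arms. The summed signal was 16166 and 13830 at 24 h and 15592 and 16387 at 48 h, which overlapped. Its direction depended on the scaling, with 8 rises and 16 falls under quantile normalization (median −0.03) and 21 and 7 with edgeR on recovered reads. The most abundant riser, miR-381-3p, went from 1205 and 955 to 1496 and 1460 (log2 0.46, limma adjusted p = 0.0032), and miR-543-3p from 381 and 492 to 328 and 308 (log2 −0.44, adjusted p = 0.0066). The call for miR-381-3p was lost under quantile normalization, and that for miR-543-3p without 24 h replicate 2 (−0.26, adjusted p = 0.066) or without 48 h replicate 2 (−0.40, adjusted p = 0.050). The largest fall in the cluster was miR-668-3p, from 3.15 and 2.96 to 1.21 and 1.37 (log2 −0.99).

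The largest fall among arms with a mean signal of at least 10 was miR-499-5p, which is made from an intron of the muscle myosin gene Myh7b, from 36.9 and 49.6 to 9.94 and 9.67 (log2 −2.07, SE 0.13, limma adjusted p = 1.7e-07). After the let-7 arms, miR-195a-3p (log2 −1.33), miR-6539-5p (−1.25) and miR-1935-5p (−1.19) followed. For miR-135b-5p, a regulator of WNT signalling through APC, the signal went from 112 and 128 to 53.5 and 52.6 (−1.17), and miR-672-5p went from 103 and 98.8 to 42.3 and 50.1 (−1.12). The last of the 12, miR-143-3p, a miRNA of smooth muscle and fibroblasts, went from 157 and 144 to 69.7 and 70.9 (−1.10), and miR-194-2-5p (−1.14) completed the set. Every one of the 12 had 24 h and 48 h values that did not overlap, as the rule required.

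Markers of other cell types moved in both directions, and those of fibroblasts and feeder cells held more signal than the other classes. The label of embryonic stem cells was met by the miR-290 cluster, the largest in each of the 4 libraries. Fibroblast and feeder markers gave 1 rise and 8 falls of 13 tested arms, with summed signals of 3008 and 3040 at 24 h and 2835 and 2972 at 48 h, or 2.73% and 2.76% of the library against 2.58% and 2.70%. Most of this was miR-21a-5p, 1 of the 12 most abundant arms. Neural markers gave 2 rises and 9 falls of 19 (789 and 897 against 591 and 593), with miR-124-1-3p from 14.8 and 16.6 to 8.41 and 8.02 and miR-9-1-5p at 102 and 112 and then 86.4 and 96.8. Liver and gut markers gave 4 falls and no rise of 5 (92.0 and 84.8 against 45.9 and 49.4), blood markers 1 rise and 4 falls of 5 (228 and 262 against 146 and 145), and markers of skin and other epithelia 2 and 2 of 4 (101 and 94.0 against 84.5 and 85.4). Muscle markers gave 4 rises and 1 fall of 5 (47.3 and 60.8 against 45.4 and 40.9): both miR-1a copies went from 4.86 and 5.09 to 15.7 and 14, both miR-133a copies rose from under 0.4 to at least 1.29, and the fall was miR-499-5p. Rows of hairpin copies are each counted and added in these marker lists. With copies counted once, neural markers gave 1 rise and 4 falls of 9, and fibroblast and feeder markers 1 rise and 7 falls of 11. Muscle markers then gave 2 rises and 1 fall of 3, and liver and gut markers 3 falls of 4. Of the markers, 4 muscle, 3 liver and gut and 2 blood arms were at 0 in all 4 libraries. The part of such cells in the changes above was not tested.

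The last interval was set against the first, 12 h against 0 h, which shares no library with it but is shorter (12 h against 24 h). The change differed between the intervals for 403 of 685 arms (58.8%), 226 with a higher and 177 with a lower change in the last. In the first interval 175 arms were called, 64 as rises and 111 as falls. Of the 121 arms called in both intervals, 82 had opposite signs. They included 6 of the 9 miR-302 cluster arms. For example, miR-302b-3p changed by −0.34 in the first 12 h and by 1.81 in the last 24 h (difference 2.16, SE 0.16, limma adjusted p = 1.3e-06), and miR-302d-3p by −0.41 and 1.96 (difference 2.37). In the miR-106a-363 cluster 7 of 12 arms were called with opposite signs. Among them were miR-20b-5p, at −0.69 in the first interval and 1.26 in the last, and miR-106a-5p, at −0.85 and 1.18. In the same cluster miR-19b-2-3p fell in the first interval (−0.39, limma adjusted p = 0.039) and was not called in the last (0.04). Between these intervals, from 12 h to 24 h, miR-302b-3p (0.40), miR-302d-3p (0.64), miR-20b-5p (1.04) and miR-106a-5p (1.20) had already risen. A contrary example was miR-21a-5p, an abundant miRNA induced by STAT3 and AP-1, which rose by 2.20 on the log2 scale in the first 12 h and by 0.05, not called, in the last interval (difference −2.15, limma adjusted p = 1.7e-07). In miR-292-5p the first interval gave 0.23, not called, and the last −0.98.

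**Figure D5:**
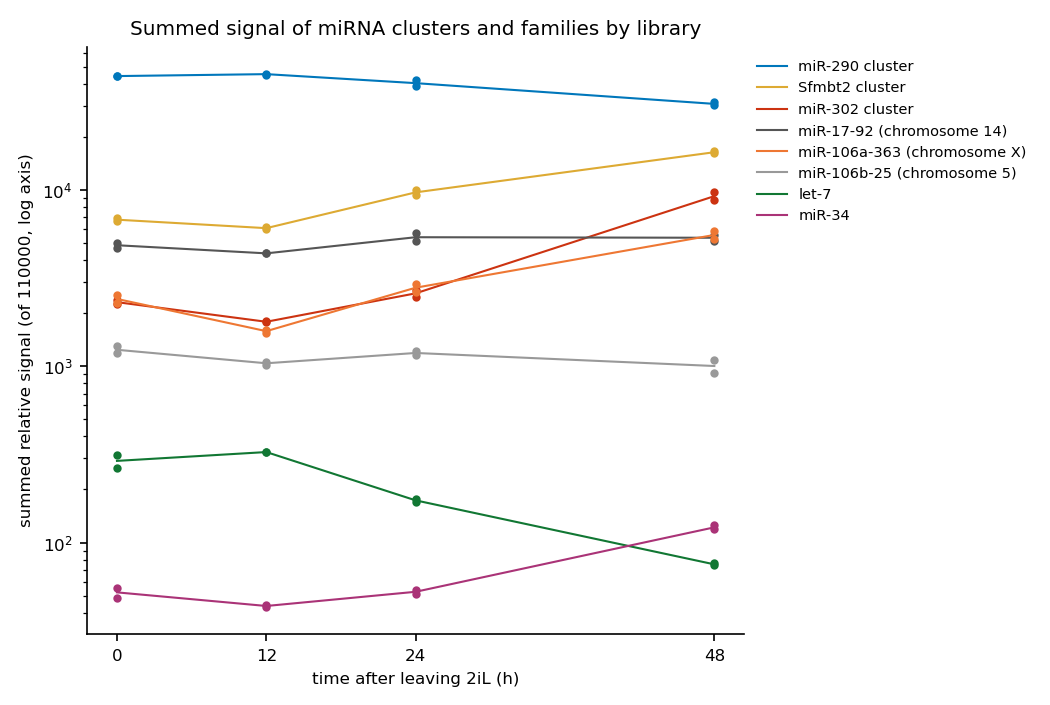
Points are the summed relative signal of a cluster or family in each library at 0, 12, 24 and 48 h (log axis), and lines join the means of the 2 libraries. Rows of hairpin copies are each added, also where they hold identical values. From 24 h to 48 h the miR-302 sum goes from 2472 and 2706 to 9706 and 8710 and passes that of miR-17-92, while let-7 drops from 170 and 177 to 76.2 and 74.3.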

How the data were processed

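Small RNA libraries were made from total RNA with the TruSeq small RNA protocol, per the labels' protocols. The authors deposited 1 relative signal per hairpin arm and library. Per the submitters' processing notes the series used mm10, STAR 2.5.0 and Cufflinks 2.2.1, while trimming and read assignment are not given in the sources used here. Low signals are sums of whole reads from 2 tables per library, each scaled to 55000 (100% of 610 to 651 values under 100 reads were whole within 0.001 reads); 1 read was worth 0.0120 to 0.0153 in these 4 libraries. Read depth of 5441382 to 9131989 per library limits counting error only.

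The main test was limma 3.58.1 in R 4.3.3 (linear model with an intensity trend, 4 group means on 8 libraries, 4 residual and 7.79 prior degrees of freedom) on log2(signal + 0.5); its median SE was 0.127. The script was tested on simulated data. Alternatives were other pseudocounts, filters and scalings, edgeR 4.0.16 and DESeq2 1.42.0 on recovered reads, a replicate block and leaving out each library. Replicates were not treated as pairs: no label says what a number shares, and the correlation of same-numbered deviations ran from −0.359 (24 h with 48 h) to 0.292 (0 h with 48 h). Named arms came from the 12 largest called rises and falls with a mean signal of at least 10 and no overlap, the 12 most abundant arms, list members with a mean signal of at least 50 (of which a part is printed) and the 5 largest called shifts of arm balance each way; other list members were named after their values were seen. The arms and lists were chosen with earlier results of these data known. Sequences and gene spans (strand and exons not compared) are RefSeq's.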

Additional observations from a re-analysis of the deposited data

Results flagged for a closer look

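The change of the last interval (48 h against 24 h) differed from that of the first (12 h against 0 h) by the interaction contrast in limma for 6 arms that were also called with the opposite sign in the first interval, among the 12 largest rises, the 12 largest falls and the 12 most abundant arms. The intervals differ in length. The difference on the log2 scale was 2.51 for miR-302a-3p, 2.37 for miR-302d-3p, 2.67 for miR-302c-5p and 2.16 for miR-302b-3p, all of the miR-302 cluster. It was −1.87 for miR-195a-3p and −1.63 for miR-6539-5p.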

How the results depend on the processing

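Over other pseudocounts, filters, scalings and tools, 3020 of 3196 pairs of a named arm and an alternative kept the direction and the side of the threshold; 134 lost a call (37 arms) and 36 gained one (24 arms). The 12 largest rises and the 12 largest falls kept both in all 203 pairs each. They had been chosen as the largest called changes without overlap in these same libraries, which favours this outcome. Reversals on the log2 scale came under quantile normalization for Dlk1-Dio3 arms, namely miR-134-5p (−0.297, limma adjusted p = 0.042), miR-410-3p (−0.133), miR-300-3p (−0.105), miR-136-3p (−0.137) and miR-370-3p (−0.109), for miR-434-5p without 24 h replicate 1 (0.303; −0.397 without 24 h replicate 2), and for the summed fibroblast and feeder markers under median-ratio scaling (0.00833); the cause was not tested. With at least 10 signal units, fewer arms were tested and 302 were called as changed, 265 as different between intervals and 18 for arm balance; with no filter, arm balance gave 133. Leaving out 1 library gave 373 to 430 called arms, 147 to 193 seeds, 19 to 53 hairpins for arm balance and 343 to 410 arms for the intervals. With copies counted once, an alternative chosen after seeing the data, 331 of 568 arms were called. The deviations of same-numbered replicates were correlated at −0.359 between 24 h and 48 h and at 0.292 between 0 h and 48 h, and whether the numbers mark a shared culture is not known. The replicate block gave 446 arms, 194 seeds, 42 hairpins and 399 arms for the intervals, and a crossed replicate block, chosen after seeing the data, gave 477 arms, 218 seeds and 54 hairpins. Arms below about 1 signal unit could not be tested for modest changes, and only relative levels were measured.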

Other observations

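Some tested arms under the mean signal of 10 also changed by more than most, and are given here as chosen after their values were seen. The largest rise among them was miR-1298-5p, within the span of the serotonin receptor gene Htr2c on chromosome X, at 0.105 and 0.0152 at 24 h (8 reads and 1 read) and 2.16 and 2.58 at 48 h. On chromosome 5, miR-703-5p went from 0.629 and 0.598 to 4.60 and 5 (log2 2.25, limma adjusted p = 1e-06). Among the falls, miR-150-3p, whose 5p arm marks lymphocytes, went from 4.00 and 3.32 to 0.454 and 0.397 (log2 −2.16). Both arms of miR-135b fell, with miR-135b-3p going from 9.29 and 9.59 to 2.02 and 2.27 (−1.91). In the HOX clusters, miR-196a-2-5p went from 7.37 and 9.04 to 2.12 and 2.21 (−1.70).

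Both arms of miR-335, which lies in the imprinted gene Mest, fell in the last interval after a rise in the first. For miR-335-5p the signal was 67.6 and 66.9 at 24 h and 41.5 and 42.5 at 48 h (log2 −0.67, limma adjusted p = 0.00015), and in the first 12 h it had changed by 0.60. The liver marker miR-122-5p behaved in the same way at a low level, by 2.71 in the first 12 h and by −1.49 in the last 24 h.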
